A study of Mus musculus with 8 samples.

Results

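GC-poor peaks at coding gene start sites were taken from the differential accessibility lists of mouse hearts at the embryonic stage E10.5. They were chosen by position and base composition alone, as peaks that lay within 1 kb of an annotated transcription start site (TSS) of a protein-coding gene and had a GC content under 60%. There were 746 such peaks among 15736 listed peaks, 622 in the *Chd4-CMko* list and 124 in the WT list. They are called GC-poor TSS peaks here.

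The assay was ATAC-seq, which reads open chromatin from the places where Tn5 transposase can put its adapters. WT and *Chd4-CMko* groups had 4 samples each, and every sample was a pool of several whole hearts. In *Chd4-CMko* embryos a floxed *Chd4* allele is deleted by Cre recombinase under the promoter of *Tnnt2*, the cardiac troponin T gene. Cardiomyocytes therefore lose CHD4, while endocardial, epicardial and blood cells of the same hearts keep it, and the cell type behind a peak cannot be told from these data. Each genotype is represented by a list of peaks past a fold-change limit of 2 set by the authors, with no value for any sample. A peak in the *Chd4-CMko* list is called gained and a peak in the WT list lost. The spread between samples is thus unknown, and the intervals below are 95% intervals (Wilson for a share, Newcombe for a difference) that cover counting error only. Neighbouring peaks and peaks of 1 gene are not independent. The methods state a sequencing depth per sample, but the files do not give what each library reached.

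CHD4 is the ATPase of the NuRD complex, which moves nucleosomes and removes histone acetylation, and it is known for repressing genes in developing muscle and heart. Mammalian promoters fall broadly into CpG-island promoters, which are GC-rich and serve many housekeeping and developmental genes, and GC-poor promoters, which more often serve genes restricted to a tissue and carry binding sites of tissue-specific factors near the TSS. Contractile protein genes of heart and skeletal muscle are well-known examples of the latter kind.

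Sequences are shown first for 7 members, as examples of the motifs described below. They are the highest-scoring members with each leading motif that overlap no annotated UTR, with genes of the tissue lists preferred. Each is printed 5′ to 3′ on the strand of the gene, from the GRCm38 sequence, and capitals mark the motif. The gained peak at chr2:164779778-164779928 lay 37 bp upstream of a start of *Tnnc2*, the troponin C of fast skeletal muscle, and its CCAAT box (on the opposite strand) began 75 bp upstream of that start.

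Tnnc2, CCAAT: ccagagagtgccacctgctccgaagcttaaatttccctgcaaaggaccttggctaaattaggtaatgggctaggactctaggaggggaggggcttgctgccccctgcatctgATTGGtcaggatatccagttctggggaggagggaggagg

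The gained peak at chr7:4521306-4521456 overlapped an exon inside *Tnni3*, the cardiac troponin I gene, 739 bp upstream of an internal start, and ended in a GC box (GGGCGG).

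Tnni3, GC box: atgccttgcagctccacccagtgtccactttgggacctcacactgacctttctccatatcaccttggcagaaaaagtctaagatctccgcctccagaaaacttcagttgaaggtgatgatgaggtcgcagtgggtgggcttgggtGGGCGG

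The gained peak at chr11:104578240-104578390 lay 959 bp downstream of a start of *Myl4*, the essential myosin light chain of atrial and embryonic muscle, outside any exon, and held the nuclear receptor half-site AGGTCA.

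Myl4, nuclear receptor: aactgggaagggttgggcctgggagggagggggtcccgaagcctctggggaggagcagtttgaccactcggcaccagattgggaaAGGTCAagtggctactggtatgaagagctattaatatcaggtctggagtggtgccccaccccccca

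The gained peak at chr1:172220115-172220265 lay 247 bp upstream of *Casq1*, the calcium-binding calsequestrin of fast muscle, and held a MEF2 site, the element bound by the MEF2 factors of muscle.

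Casq1, MEF2: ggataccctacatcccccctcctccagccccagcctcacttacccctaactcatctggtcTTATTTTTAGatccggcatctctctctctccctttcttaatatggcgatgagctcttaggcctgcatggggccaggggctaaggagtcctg

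The gained peak at chr2:119809021-119809171 lay 37 bp upstream of a start of *Tyro3*, a receptor tyrosine kinase, and held the GATA site AGATAAG.

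Tyro3, GATA: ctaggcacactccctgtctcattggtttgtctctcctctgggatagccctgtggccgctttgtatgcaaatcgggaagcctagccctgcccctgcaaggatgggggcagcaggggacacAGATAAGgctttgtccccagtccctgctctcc

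Among lost peaks, that at chr3:88630157-88630307 lay 586 bp downstream of a start of *Arhgef2* and held the TEAD site ACATTCC on the opposite strand.

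Arhgef2, TEAD: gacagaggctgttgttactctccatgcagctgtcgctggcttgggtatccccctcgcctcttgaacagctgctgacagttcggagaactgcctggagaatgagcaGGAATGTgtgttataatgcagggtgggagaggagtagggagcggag

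The lost peak at chr4:102987050-102987200 lay 668 bp downstream of a start of *Tctex1d1* and held the site of CTCF, the factor that bounds chromatin loops.

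Tctex1d1, CTCF: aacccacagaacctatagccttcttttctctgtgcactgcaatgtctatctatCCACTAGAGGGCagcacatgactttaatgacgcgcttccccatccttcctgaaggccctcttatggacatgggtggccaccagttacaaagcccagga

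The first question was how the GC-poor TSS peaks divided between gained and lost peaks. Gained peaks made up 622 of the 746 (83.4%, 80.5 to 85.9%). This share was lower than among GC-rich TSS peaks, of which 1564 of 1579 (99.1%, 98.4 to 99.4%) were gained. The difference was -15.7 percentage points (-18.5 to -13.1), and GC-poor TSS peaks had the higher gained share on 0 of 19 autosomes. The share was higher than among GC-poor peaks away from coding TSSs (8834 of 11323, 78.0%), by 5.36 points (2.42 to 7.98) and on 15 of 19 autosomes, but with a GC limit of 55% the interval included 0 (1.31 points, -3.26 to 5.39). Against all other listed peaks (82.5%) the difference was 0.863 points, with an interval that included 0 (-2.04 to 3.44). Since GC content entered the rule and moved with the list, the split by GC is a description. Of the peaks at coding TSSs, 89.2% in the WT list and 28.5% in the *Chd4-CMko* list were GC-poor, although GC-poor TSS peaks formed similar parts of the whole lists, 4.79% of gained and 4.52% of lost peaks (difference 0.271 points, -0.643 to 1.08).

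The gained share of the members rose with their GC content. It was 55.6% below 45% GC (15 of 27 peaks), 67.6% from 45 to 50% (75 of 111), 82.1% from 50 to 55% (206 of 251) and 91.3% from 55 to 60% (326 of 357). Peaks away from coding TSSs gave 55.3%, 70.8%, 81.1% and 87.3% in the same classes. The difference between the locations was 3.98 points from 55 to 60% GC (0.412 to 6.78), and its interval included 0 in each of the other 3 classes. With the away peaks weighted to the members' GC content their gained share was 81.8%. The values nearest the limit changed little across it, with 46 gained and 2 lost peaks at 59.6% GC and 42 gained and 3 lost peaks at 60.3% GC. The mean GC content was 54.5% ± 4.05 (SD over 622 peaks) for gained and 51.1% ± 5.14 (SD over 124 peaks) for lost members.

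**Figure D1:**
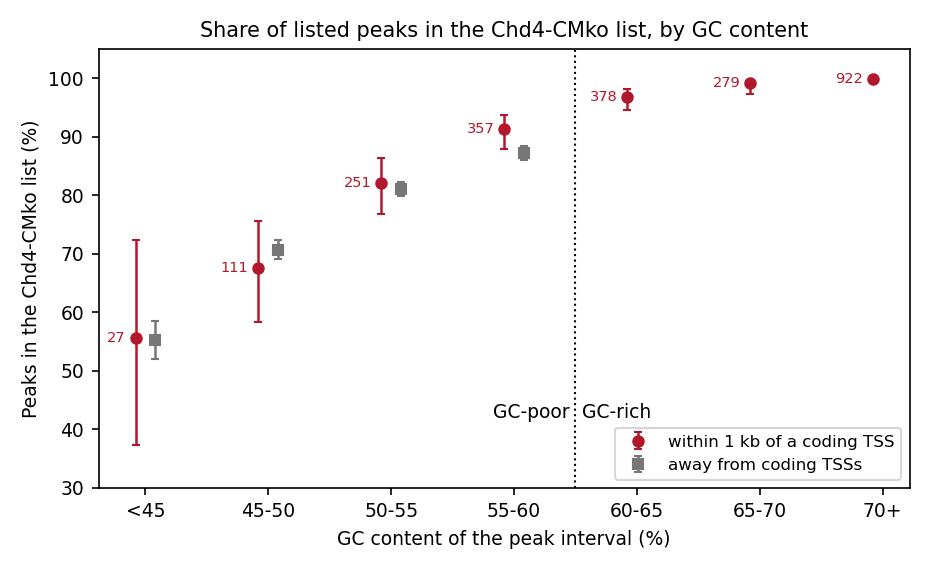
Share of listed peaks that were in the *Chd4-CMko* list (y axis, %, starting at 30) by GC content of the interval (x axis, %), for peaks within 1 kb of a coding TSS (circles, number of peaks beside each) and away from coding TSSs (squares, drawn below 60% GC). Bars are Wilson 95% intervals. At coding TSSs the share rises from 55.6% below 45% GC to 99.9% at 70% GC and above.

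Where the members lay was examined next. Of the gained members, 26.5% covered a TSS, 44.4% lay upstream and 29.1% downstream. Lost members covered a TSS in 20.97% of cases, lay upstream in 41.9% and downstream in 37.1%, and the intervals of all 3 differences included 0 (for covering a TSS, 5.56 points, -3.09 to 12.8). With a GC limit of 65% the interval for covering a TSS excluded 0 (8.31 points, 0.133 to 15.1). The edge of the peak was a median of 133 bp from the TSS in gained and 304.5 bp in lost members. The centre fell within 200 bp upstream of the TSS in 238 of 622 gained members (38.3%, 34.5 to 42.1%) and 28 of 124 lost members (22.6%, 16.1 to 30.7%), a difference of 15.7 points (6.75 to 23.2) in a window chosen after the positions were plotted. Of GC-rich gained TSS peaks 45.8% lay there, and the GC-poor minus GC-rich difference was -7.58 points (-12.1 to -2.99). The gained share was 86.4% for members over a TSS, 88.1% for those 1 to 100 bp away, 82.95% from 101 to 250 bp, 81.9% from 251 to 500 bp and 78.5% from 501 to 1000 bp. The first of these exceeded the last by 7.85 points (0.405 to 15.07) and the second by 9.57 points (1.56 to 16.9), while the other intervals included 0, in a comparison added after the values were seen.

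**Figure D2:**
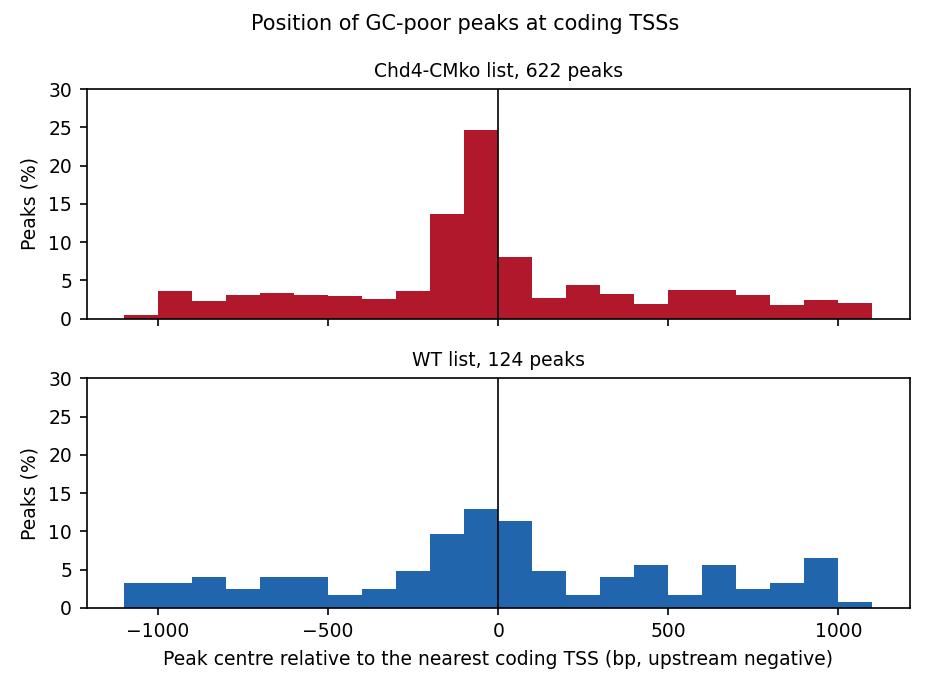
Position of the peak centre relative to the nearest coding TSS (x axis, bp, upstream negative, bins of 100 bp) as a share of the peaks of each list (y axis, %), for 622 gained (top) and 124 lost (bottom) GC-poor TSS peaks. The 200 bp upstream of the TSS hold 38.3% of gained peaks against 22.6% of lost peaks (GC-rich gained TSS peaks, not drawn, 45.8%).

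GC-poor and GC-rich gained peaks differed in position. GC-rich TSS peaks covered a TSS in 45.3% of cases, a GC-poor minus GC-rich difference of -18.8 points (-22.9 to -14.4). The annotation holds many starts of shorter transcripts inside genes, and 249 of 622 gained members (40.03%) and 39 of 124 lost members (31.5%) lay within 1 kb of the start of a whole coding gene record, against 1170 of 1564 GC-rich gained TSS peaks (74.8%). When only these record starts were used, the difference in covering a TSS was -2.14 points and its interval included 0 (-8.36 to 4.50). Most GC-poor TSS peaks were thus at starts of transcripts within genes rather than at the outer end of the gene. A CpG observed-to-expected ratio of at least 0.6, a usual criterion for a CpG island, was found in 7.56% of gained and 3.23% of lost members and in 68.3% of GC-rich gained TSS peaks. Lost members were more often free of annotated repeats, 66.1% against 53.7% of gained members (gained minus lost -12.4 points, -21.1 to -2.90). GC-poor peaks away from coding TSSs had the same order, 60.6% of lost against 46.7% of gained peaks, so it was not particular to start sites.

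The genes at these start sites were then examined. Gained members lay at 604 and lost members at 120 of 21938 protein-coding genes, which set the background at 2.75% and 0.547% of coding genes. Among the 11614 genes whose own start window had a GC content under 60%, the background was 2.85% and 0.534%. Of the 604 genes with a gained member, 63 also had a GC-rich gained TSS peak, which 1484 of all 21938 coding genes had. *Adtrp*, which encodes a lipid hydrolase, had 3 gained members, with scores of 89.5, 51.5 and 48, and 27 genes had 2. Of the genes with lost members, *Cacnb2*, *Phf21a*, *Synj2*, *Oma1* and *Trim12a* had 2 each.

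The 2 lists of striated muscle genes had the highest shares of genes with a gained GC-poor TSS peak among the 13 lists. Of 28 cardiac contractile genes 6 had a gained member (21.4%, 10.2 to 39.5%), and of 35 skeletal muscle genes 8 (22.9%, 12.1 to 39.0%), beside the background of 2.75%. Of the same genes 0 had a lost member, with upper bounds of 12.1% and 9.89%, beside a background of 0.547%. Among genes with a GC-poor start window the numbers were 4 of 21 and 5 of 23. Gained GC-rich TSS peaks were also found at 8 of the 35 skeletal muscle genes, the same count as for GC-poor peaks, and at 2 of the 28 cardiac contractile genes, beside 1484 of all 21938 coding genes. The counts depended on the choice of members, and were 3 of 28 and 2 of 35 with a GC limit of 55%, which left 296 gained members. With a limit of 65% (988 gained members) the cardiac contractile count was 8 and the skeletal muscle count 13. With gene record starts only (249 gained members) the cardiac contractile count was 2 and the skeletal muscle count 6. The share of all coding genes was not computed at these settings. Whether the excess of the 2 lists over the background changed cannot be read from these counts. Of 22 cardiac transcription factor genes, among them *Gata4*, *Nkx2-5*, *Tbx5* and *Mef2c*, 0 had a GC-poor TSS peak in either list, which with an upper bound of 14.9% does not set them apart from the background, and 6 of the 22 had a GC-poor start window.

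The cardiac contractile genes with gained members encode parts of the sarcomere and a secreted hormone. *Nppa*, the atrial natriuretic peptide gene of the embryonic heart chambers, had the highest score of the group, 248.5, at a peak 236 bp upstream of its TSS. The score is the authors' own peak score, whose scale is not stated, and the median over the *Chd4-CMko* list was 62.5. *Myl3*, the essential light chain of slow and ventricular muscle, had a score of 181 at a peak over its TSS that held a CArG box, the serum response factor site of muscle promoters, and a CCAAT box. *Tnni3*, the cardiac troponin I, had 2 gained members, 1 over a TSS with a score of 168 and a GATA site, and the printed one with a score of 150.5. *Tnni1*, the slow-muscle troponin I that the embryonic heart also uses, had a score of 86 at a peak 78 bp upstream. *Myl4* had a score of 170 at the peak printed above. *Actn2*, the alpha-actinin of the Z-disc, had a score of 54.5 at a peak 852 bp upstream of an internal start, and was the only gene of the group below the list median. Of these members, those at *Nppa* and *Tnni1* were within 1 kb of the gene record's start, and the others were at internal starts.

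The skeletal muscle genes with gained members covered the contractile apparatus, calcium handling and metabolism. *Tnnt1*, the slow-muscle troponin T, had a score of 190.5 at a peak 128 bp upstream, and *Tnnc2* a score of 178. *Casq1* had a score of 108.5, and *Ryr1*, the calcium release channel of skeletal muscle, a score of 77 at a peak 450 bp downstream of an internal start. *Pygm*, the muscle glycogen phosphorylase, had a score of 100.5 at a peak 705 bp upstream that held a CAGCTG E-box, the sequence read by myogenic factors, and an AGGTCA half-site. *Trim63*, a ubiquitin ligase of muscle wasting, had a score of 99.5 at a peak over its TSS with a CAGCTG E-box and a TATA box. *Myoz1*, a Z-disc protein of fast muscle, had a score of 62.5, and *Myl1*, the essential light chain of fast muscle, had the lowest score of the group, 30, at a peak over its TSS. Of the 8 genes, *Tnnt1*, *Tnnc2*, *Casq1*, *Pygm*, *Trim63* and *Myl1* had the peak within 1 kb of the gene record's start. *Tnnt1* and *Tnni3* are neighbours on chromosome 7, so their 3 peaks lie in a shared region.

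**Figure D3:**
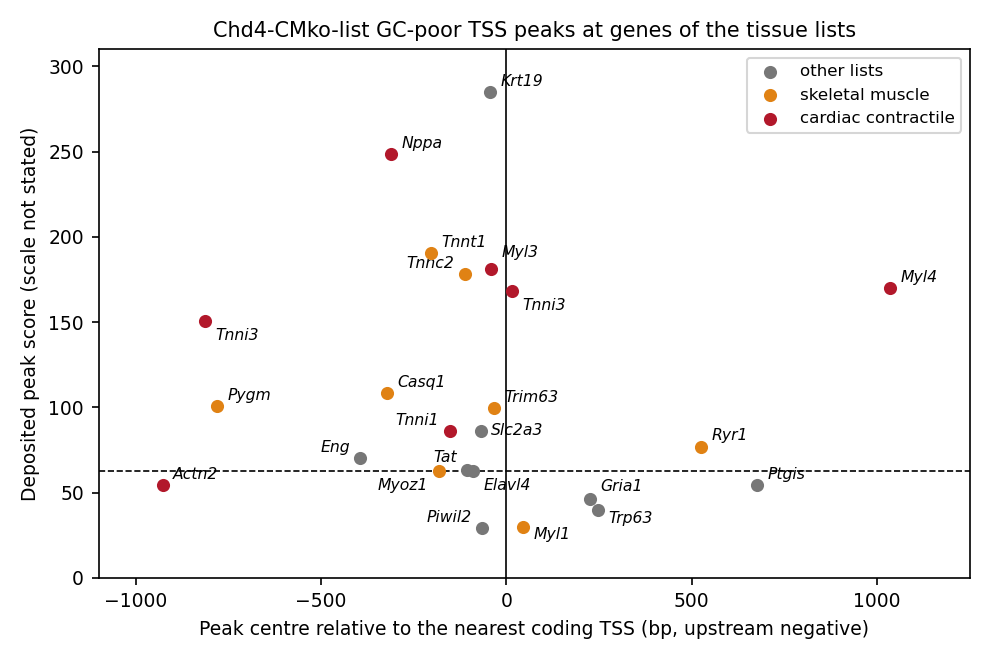
Deposited score (y axis, scale not stated) and position of the peak centre relative to the nearest coding TSS (x axis, bp, upstream negative) for each gained GC-poor TSS peak at a gene of the tissue lists. The dashed line is the median score of the *Chd4-CMko* list, 62.5, and most cardiac contractile and skeletal muscle peaks are above it, up to 248.5 at *Nppa*.

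Lists of other cell types and of glycolysis had 0 to 2 genes with a gained member each. There was 1 among 14 smooth muscle genes (*Ptgis*, prostacyclin synthase, score 54.5), 1 among 24 endothelial genes (*Eng*, the TGF-beta co-receptor endoglin, score 70), 1 among 18 epicardial and mesenchymal genes (*Krt19*, a simple-epithelium keratin also made by the epicardium, score 285) and 1 among 23 glycolysis genes (*Slc2a3*, a glucose transporter, score 86). Lists of tissues outside the heart gave 2 of 23 neuronal genes (*Gria1*, a glutamate receptor subunit, score 46, and *Elavl4*, a neuronal RNA-binding protein, score 62.5), 1 of 24 liver and gut genes (*Tat*, tyrosine aminotransferase, score 63), 1 of 21 epithelial genes (*Trp63*, score 39.5) and 1 of 20 germ line genes (*Piwil2*, score 29). Where a list had such a gene, its share was above the background of 2.75% in value. These shares ran from 4.17% (endothelial, and liver and gut) to 8.70% (neuronal). With 1 or 2 genes each, the interval of each of these shares included the background, and the highest lower bound was 2.42% for the neuronal list. Of 21 erythroid and 24 leukocyte and platelet genes 0 had a gained member, for which the upper bounds of the intervals were 15.5% and 13.8%.

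Lost members at the lists' genes were confined to the embryonic globins among the lists examined. Of 21 erythroid genes 2 had a lost member (9.52%, 2.65 to 28.9%), beside the background of 0.547%, and the other 12 lists had 0. The count was 1 with a GC limit of 55% and at or above either score limit. Within 2 kb of a TSS it was 3, and 1 leukocyte and platelet gene also had a lost member there. *Hba-x*, the zeta-globin gene of primitive red cells, had a score of 50 at a peak 117 bp downstream of its TSS, and *Hbb-y*, the epsilon-y globin gene, a score of 34.8 at a peak over its TSS. The median over the WT list was 36.8. Red cells are not the target of the Cre driver, and how many of them each pool held is not known, so a change in their number and a change in their chromatin cannot be told apart.

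**Figure D4:**
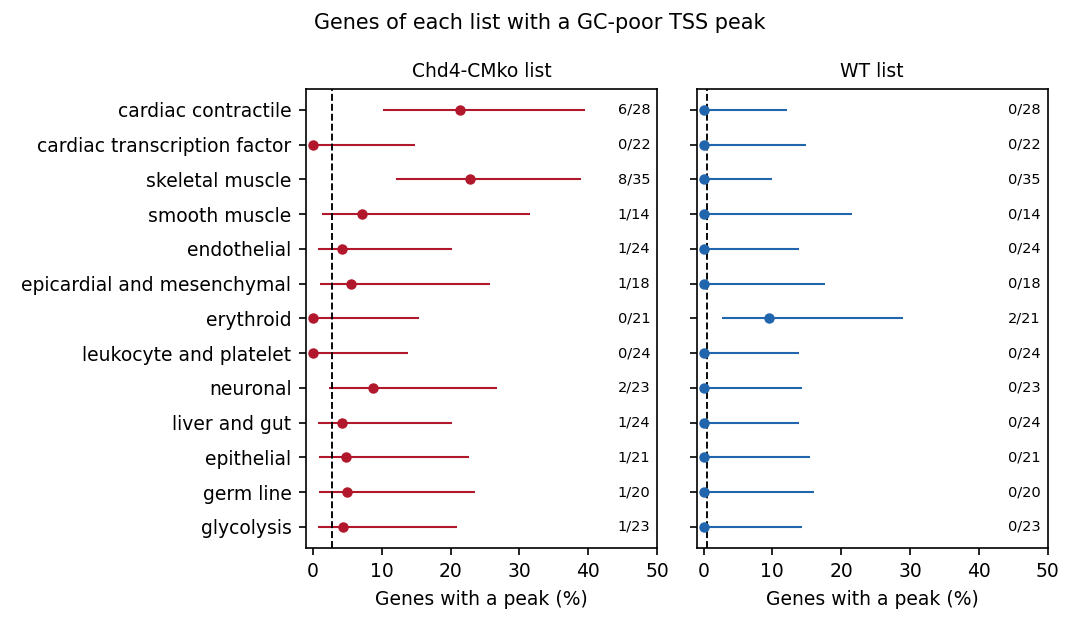
Share of the genes of each of 13 lists with a GC-poor TSS peak (x axis, %) in the *Chd4-CMko* list (left) and the WT list (right), with Wilson 95% intervals and counts at the right edge. Dashed lines are the shares over all coding genes, 2.75% and 0.547%, and the 2 muscle lists stand at 21.4% and 22.9% on the left.

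Gene families were read from symbols. Gained members lay at 10 of 371 solute carrier genes, 8 of 394 *Zfp* zinc finger genes, 4 of 94 potassium channel genes and 3 of 102 oxidative phosphorylation genes, and the intervals of these 4 shares included the background of 2.75%. Of 68 tripartite motif genes 2 had a gained member and 3 (*Trim10*, *Trim12a* and *Trim30a*) a lost member, and the lost share of 4.41% (1.51 to 12.2%) stood beside a background of 0.547%. Gained members lay at 3 of 25 myosin chain genes (12.0%, 4.17 to 29.96%), which are the *Myl1*, *Myl3* and *Myl4* given above, and at 6 of 99 genes named as CD antigens (6.06%, 2.81 to 12.6%), both with lower bounds above the background. Among genes with a GC-poor start window the interval of the difference from the background of 2.85% included 0 for the CD antigens (3.58 points, -0.0709 to 11.3). Of 1134 olfactory receptor genes, which are silent outside the nose and nearly all have GC-poor starts, 2 had a gained member (0.176%, below the background) and 3 a lost member. Of 98 genes whose symbols matched the ribosomal protein pattern 2 had a gained member, and both (*Rps6ka2* and *Rps6kl1*) encode kinases and not ribosomal proteins.

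The highest scores among gained members were not at muscle genes. They were at *Tspear* (403.5), *Ier3* (399.5), *Lmtk3* (380), *Parp3* (374.5), *E2f2* (353.5), *Hdgf* (340.5), *Aspg* (337) and *Cxxc5* (328.5). *Ier3* is an immediate-early gene, *Parp3* a poly(ADP-ribose) polymerase, *E2f2* a cell-cycle transcription factor and *Hdgf* a growth factor. Their GC content was between 54.3% and 59.6%. Among them *Tspear*, *Ier3* and *E2f2* held both a CCAAT and a GC box. The highest scores among lost members were at *Alyref2* (402.4), *Plekha7* (199.2), *Amotl1* (106), *BC017158* (95.9), *Arhgef2* (89.5), *Dglucy* (87.5), *Olfr156* (87) and *Arhgap21* (86.6). *Alyref2*, an mRNA export adaptor gene, stood apart from the others, and the peak was 513 bp upstream of its TSS with a GC content of 39.7%. *Plekha7* and *Amotl1* encode proteins of cell junctions.

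Of the 120 genes with a lost member 2 also had a gained member, beside the background of 2.75%. *Art3*, an ADP-ribosyltransferase family gene, had a gained member (score 70) 942 bp downstream of a start and a lost member (score 42.3) 190 bp downstream of another start. *Il16*, a cytokine gene, had a gained member (score 41) 46 bp downstream and a lost member (score 70.7) 121 bp upstream of different starts. In each gene the peaks were at different sites.

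Scores were compared within each list. Of gained members 57.6% (53.6 to 61.4%) were above the median of their list, 20.6 points more than GC-poor gained peaks away from TSSs (16.6 to 24.6). The difference from GC-rich gained TSS peaks was -35.4 points (-39.4 to -31.3). Among gained members the share above the median rose with GC content, from 26.7% below 45% GC to 65.3% from 55 to 60% GC, and was 59.4% over the TSS, 55.4% upstream and 59.1% downstream. Of lost members 61.3% were above the median of their list, 12.9 points more than GC-poor lost peaks away from TSSs (3.91 to 21.3). This interval included 0 under 3 of 8 other choices of members. Of the 15 GC-rich lost TSS peaks 9 were above the median, a difference of 1.29 points (-20.7 to 26.9). Scores were not compared between the lists.

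Sequence motifs were compared next, as 24 consensus strings searched on both strands without mismatch. The background was every window of the peaks' width tiled within 1 kb of coding TSSs with a GC content under 60% (551511 windows). Since GC content moves the frequency of a string, the share of windows weighted to the GC content of the gained members is given as well. A match is a string in the sequence and not evidence of a bound factor.

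Of the 24 motifs, 3 separated gained from lost members with intervals that excluded 0 also after adjustment for 24 comparisons, and all 3 were more frequent in gained members. The CCAAT box, read by the ubiquitous factor NF-Y, was present in 208 of 622 gained members (33.4%, 29.8 to 37.2%) and 12 of 124 lost members (9.68%, 5.62 to 16.2%), a difference of 23.8 points (16.3 to 29.3). In background windows it was in 19.03%, or 15.9% at the gained members' GC content. The GC box GGGCGG, read by SP and KLF factors, was in 18.97% of gained and 2.42% of lost members (difference 16.6 points, 11.2 to 20.2), against 3.12% of windows or 7.91% at matched GC content. The nuclear receptor half-site AGGTCA was in 19.6% of gained and 6.45% of lost members (difference 13.2 points, 6.70 to 17.7), against 9.46% of windows or 10.8% at matched GC content. Since gained members were richer in GC, the comparison was repeated in members of 50 to 60% GC, a choice made after seeing the data, and the differences were 24.4, 17.3 and 15.6 points with intervals above 0. GC content still differed within that band, where 326 of 532 gained and 31 of 76 lost members were at 55 to 60% GC. Weighted to the GC classes of the lost members, the gained shares were 36.4% for CCAAT, 13.05% for the GC box and 19.3% for AGGTCA. With a GC limit of 55% the GC box difference was 6.97 points (0.939 to 11.1). The same 3 strings were also more frequent in gained than in lost GC-poor peaks away from coding TSSs, with shares of 34.4% and 12.7% for CCAAT, 10.3% and 2.53% for the GC box, and 17.7% and 9.08% for AGGTCA, so the separation was not particular to start sites. The AGGTCA difference was 6.21 points with an interval that included 0 (-7.73 to 14.2) when only gene record starts were used, and 8.69 points (-0.420 to 14.7) within 500 bp of a TSS.

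Of the motifs of muscle and heart factors, MEF2, CArG, GATA and CAGCTG strings were more frequent in gained members than in the windows after adjustment, while TEAD, NKX2-5, TBX and the CACCTG E-box were not. The MEF2 site was in 31 of 622 gained members (4.98%, 3.53 to 6.99%) and 1 of 124 lost members (0.807%), against 2.51% of windows and 0.384% at matched GC content, since the AT-rich site is scarce in windows of that composition. The gained minus lost difference was 4.18 points (0.277 to 6.29), which did not exclude 0 after adjustment for 24 comparisons. The CArG box was in 2.89% of gained members and 0.788% of windows (0.557% at matched GC), and the GATA site in 6.43% of gained members and 1.95% of windows (1.28%). The CAGCTG E-box was in 14.8% of gained and 17.7% of lost members, against 7.24% of windows, or 11.5% at the gained and 9.72% at the lost members' GC content. The interval of the gained minus lost difference included 0 (-2.95 points, -11.0 to 3.51), but it excluded 0 among members at or above the list median score (-9.88 points, -21.1 to -0.689) and at or above the common score limit (-9.29 points, -20.3 to -0.382). With 1 mismatch allowed, MEF2 and GATA strings were less frequent in gained members than in the windows without matching on GC, by -10.3 and -5.18 points, and the interval for CArG included 0 (1.44 points, -1.15 to 4.46), as it did at gene record starts (0.819 points, -0.162 to 3.27). The TATA box was in 4.82% of gained members, below the plain share of windows (10.54%) and above the share at matched GC content (2.64%). NKX2-5 and TBX strings were in 12 and 8 gained members, and the intervals of their differences from the unweighted windows included 0. At matched GC content the windows held NKX2-5 strings in 0.983%, under the 1.93% (1.11 to 3.34%) of gained members, TBX strings in 0.858% against 1.29% (0.653 to 2.52%), and the CACCTG E-box in 17.2%, above the 9.97% (7.85 to 12.6%) of gained members. The MEF2 site was found with the CAGCTG E-box in 3 and with the CCAAT box in 8 gained members.

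**Figure D5:**
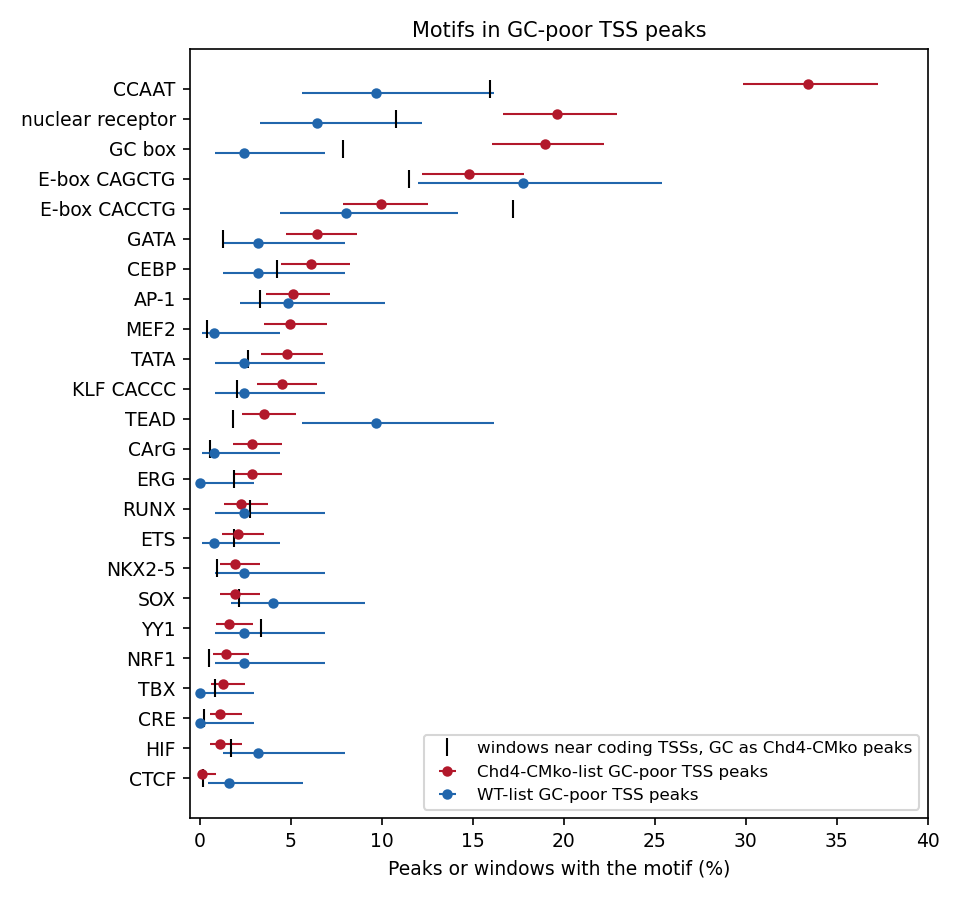
Share of GC-poor TSS peaks with each of 24 motifs (x axis, %) in the *Chd4-CMko* list (red, 622 peaks) and the WT list (blue, 124 peaks), with Wilson 95% intervals, and in windows near coding TSSs weighted to the GC content of the *Chd4-CMko* peaks (black ticks). CCAAT, nuclear receptor and GC box strings stand at 33.4%, 19.6% and 18.97% of gained peaks, each above its tick and above the lost peaks.

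In lost members the TEAD, CAGCTG, NRF1 and CTCF strings were more frequent than in the windows after adjustment. CAGCTG and NRF1 strings were so in gained members as well. The calls in lost members depended on the setting. With 1 mismatch allowed the intervals of the excess in lost members included 0 for TEAD (2.74 points, -5.31 to 11.5) and NRF1 (2.18 points, -1.21 to 8.14), and at gene record starts for CAGCTG (5.58 points, -1.64 to 19.5). The sign turned for NRF1 at or above either score limit (-0.293 points) and for CTCF at gene record starts (-0.105 points), where 0 lost members held the string. The TEAD site ACATTCC was in 12 of 124 lost members (9.68%, 5.62 to 16.2%) and 22 of 622 gained members (3.54%, 2.35 to 5.30%), against 2.10% of windows. In lost GC-poor peaks away from TSSs it was in 7.59%, a difference from lost members of 2.08 points with an interval that included 0 (-2.12 to 8.64). The gained minus lost difference was -6.14 points (-12.7 to -1.72), which did not exclude 0 after adjustment for 24 comparisons, nor, unadjusted, with 1 mismatch allowed (-0.604 points) or at or above either score limit (-4.51 and -4.23 points). The CTCF site was in 2 lost members (*Tctex1d1* and *Gabpb1*) and 1 gained member (difference -1.45 points, -5.53 to -0.0659), which did not exclude 0 after adjustment. With 1 mismatch allowed the CTCF difference was -10.49 points (-17.7 to -5.24), and lost members exceeded the windows by 12.2 points (7.25 to 19.4). The NRF1 site was in 3 lost and 9 gained members, and the interval of that difference included 0 (-0.972 points, -5.48 to 1.07).

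The motif content of gained members was set beside that of other gained peaks. Against GC-poor gained peaks away from coding TSSs, 21 of the 24 motifs had differences whose intervals included 0, among them CCAAT (33.4% against 34.4%), AGGTCA (19.6% against 17.7%), MEF2 (4.98% against 4.21%) and GATA (6.43% against 7.17%). The exceptions, at unadjusted 95% intervals, were the GC box (18.97% against 10.3%, difference 8.65 points, 5.69 to 12.0), the CEBP site (2.16 points, 0.477 to 4.36) and the NRF1 site (1.03 points, 0.326 to 2.31). Against GC-rich gained TSS peaks the GC box was less frequent (68.1% in GC-rich peaks, GC-poor minus GC-rich -49.1 points, -52.8 to -45.1), and the CCAAT box (16.2% in GC-rich peaks), AGGTCA (5.56%), MEF2 (0.320%) and GATA (0.575%) were more frequent in GC-poor peaks, with intervals of the differences that excluded 0. The rule set only the GC limit that parts the GC-poor classes from the GC-rich one. Gained members were richer in GC than the GC-poor gained peaks away from coding TSSs (median 55.6% against 53.0%), and no comparison at matched GC content was made here. GC content by itself moves GC-rich and AT-rich strings, so these differences are a description and no order of likeness is drawn from them. Within the gained members the CCAAT box was in 66 of 165 peaks over a TSS, 36.2% of those upstream and 23.2% of those downstream. It occurred together with a GC box in 43 of 622 gained members.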

How the data were processed

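Reads of E10.5 hearts were aligned by the authors to mm10 (BWA-MEM). HOMER (version 4.10.3) was used for peak calling and ChIP-Seeker (version 1.20.0) for annotation, and peaks past a 2-fold limit were kept. The sources give 3 or 4 hearts per pool. Read filters, duplicates, the Tn5 offset and the merging of samples into lists are not given in the sources used here, and each can change which peaks are listed. The 2 deposited BED lists hold a peak score per interval, deposited by the authors with no stated scale, so scores were compared within a list only. No value per sample and no achieved depth per library was in the files used, so no test between genotypes over samples could be made. Labels do not say that replicates were separate litters.

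Intervals (of the same width in 15735 of 15736 peaks) were read as mm10 and joined to the GRCm38.p6 sequence and to the 93513 starts of any transcript of 21938 protein-coding genes in GENCODE M21, transcripts without a coding sequence included. GC content was computed from the interval and distance from its nearer edge. Python 3.11.15, pandas 2.3.3, scipy 1.17.1 and samtools 1.23.1 were used. The scan, the distances and the intervals were tested on simulated data. The 13 gene lists (298 genes, *Ahsp* without a match), 15 symbol families, 24 motifs and the members were chosen with earlier results of these data known. Genes were named if they were in a tissue list, had 1 of the 8 highest scores of a list, had the most members or had members in both lists, and sequences by the highest score with a leading motif. Alternatives changed the TSS window, the GC limit, the score limit, the TSS set, repeats, sex chromosomes, motif mismatches (not for the shortest strings) and the background. The comparison within 50 to 60% GC and the background of genes with GC-poor starts were added after seeing the data.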

Additional observations from a re-analysis of the deposited data

How the results depend on the processing

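No paired analysis was possible because the lists hold no values per sample, and for the same reason no replicate could be left out. Of 152 alternative values for the main comparisons 127 kept their direction and call or their size. Gained members numbered 296 with a GC limit of 55%, 988 with 65%, 365 at or above the list median score and 249 at gene record starts, and lost members 77 within 500 bp, 195 within 2 kb, 77 at or above the list median, 77 at or above a common score limit and 39 at gene record starts. The gained share was 76.1% with a limit of 55%, 87.9% with 65%, 87.4% at or above the common score limit and 86.5% at gene record starts. Its excess over GC-poor peaks away from TSSs was 1.31 points with a limit of 55% (-3.26 to 5.39). The difference in covering a TSS between gained and lost members was 8.31 points with a limit of 65%, where the interval excluded 0 (0.133 to 15.1). Between GC-poor and GC-rich gained peaks it was -2.14 points at gene record starts. The excess of lost members above the list median score was 9.74 points within 500 bp, 8.64 with a limit of 55% and 4.93 at gene record starts. The AGGTCA difference was 8.69 points within 500 bp and 6.21 at gene record starts. Skeletal muscle genes with a gained member numbered 2 with a limit of 55% and 13 with 65%. Cardiac contractile genes numbered 3 with 55%, 8 with 65% and 2 at gene record starts. The share of all coding genes was not computed at these settings. Erythroid genes with a lost member numbered 1 with 55% and at or above either score limit, and 3 within 2 kb. Against the windows, the sign turned for MEF2 (-10.3 points) and GATA (-5.18) in gained members with 1 mismatch, for TATA in gained members at matched GC content (2.18), for TEAD in gained members (-0.894) and CTCF in lost members (-0.105) at gene record starts, and for NRF1 in lost members at or above either score limit (-0.293). The causes were not tested. Stricter limits leave fewer peaks, and 124 lost members limit every comparison between the lists. The depth each library reached is not in the files used.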

Other observations

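Some further genes were chosen after their values were seen, so they carry no test. Genes used in striated muscle that no list held had members in both lists, and the genes named here were not counted against any total. Gained members lay at *Hrc*, a calcium-binding protein of the sarcoplasmic reticulum (score 224), *Rapsn*, which clusters acetylcholine receptors at the neuromuscular junction (score 173), and *Trim72*, a membrane repair protein of muscle (score 113.5). Among lost members, *Cacnb2*, a beta subunit of voltage-gated calcium channels, had scores of 73.4 (5 bp upstream of an internal start, with a CAGCTG E-box) and 30. *Klhl31* and *Fbxo40*, which are expressed in striated muscle, had scores of 78.9 and 59.1. *Tnni3k*, a kinase of the heart, had a score of 56.4 at a peak over its TSS with a MEF2 and a TEAD site, the only lost member with a MEF2 site, and *Popdc2*, a membrane protein of heart and skeletal muscle, a score of 55.7 at a peak over an internal start. *Dmd*, the dystrophin gene, had a score of 22.7 at a peak with a TEAD site. The counts of 0 lost members at the cardiac contractile and skeletal muscle lists therefore hold for those lists and not for all muscle genes.

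Of the 21 erythroid genes of the list 19 had no lost member. Outside it, *Trim10*, a gene of erythroid maturation and 1 of the 3 tripartite motif genes with a lost member, had a score of 50.7 at a peak 39 bp upstream of its TSS with a GATA and a CCAAT string, and *Nprl3*, the neighbour of the alpha-globin cluster whose introns hold its enhancers, a score of 45 at a peak 724 bp upstream of an internal start. Among gained members, the 6 genes named as CD antigens were *Cd180*, *Cd2*, *Cd247*, *Cd55b*, *Cd74* and *Cd79b*, most of which are markers of lymphocytes, while 0 of the 24 genes of the leukocyte and platelet list had a gained member. The share of the CD antigen genes was 6.06% (2.81 to 12.6%), beside the background of 2.75%, but among genes with a GC-poor start window the interval of the difference included 0 (3.58 points, -0.0709 to 11.3).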
